A study of Mus musculus with 46 samples.

Results

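The question put to these data was whether microglia that lack the microRNA-processing enzyme Dicer answer lipopolysaccharide (LPS) differently from control microglia across the whole brain. The 14 total-brain libraries, of 46 libraries in the series, hold bulk RNA from microglia sorted from adult mice of 10 to 12 weeks as CD45int CD11b+ F4/80+ Ly6C- Ly6G- cells. They form 4 groups: 4 libraries of Dicer-deficient microglia taken 6 hours after 1 mg/kg LPS by intraperitoneal injection (numbers 35, 36, 37 and 38), 4 of control microglia after the same LPS (17, 31, 32 and 33), 3 of Dicer-deficient microglia at steady state (11b, 12 and 5) and 3 of control microglia at steady state (7, 8 and 9). Values of a group are given below in that order of libraries. The labels give Cx3cr1CreER:Dicerfl/- for the Dicer-deficient mice and Cx3cr1CreER:Dicer+/- for the controls, so that all 4 groups carry the Cre driver and a single null allele, and the controls keep 1 intact copy. CreER is a tamoxifen-inducible Cre, here driven from the fractalkine receptor gene, which is active in microglia and also in other mononuclear phagocytes. The steady-state libraries are described as PBS in one label and as steady state in another. The labels do not say that each library came from a separate mouse, so the p-values rest on the spread among libraries, which may be technical.

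LPS is a cell-wall component of Gram-negative bacteria that is sensed by Toll-like receptor 4. The receptor signals through Myd88 to nuclear factor kappa B (NF-kB), whose dimers enter the nucleus, switch on cytokine, chemokine and adhesion genes, and also switch on their own inhibitors. Dicer cuts microRNA precursors into mature microRNAs, which pair through a short seed with target transcripts and lower their output. miR-146a and miR-155 are both induced by LPS in myeloid cells, and components of Toll-like receptor signalling are among their known targets.

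The mature forms of these microRNAs are shown because their published target lists were examined in the interaction. The seed, bases 2 to 8, is in capitals. Both are RefSeq sequences on GRCm38.p6, miR-146a-5p from chr11:43374435-43374456 on the minus strand and miR-155-5p from chr16:84714143-84714165 on the plus strand.
mmu-miR-146a-5p: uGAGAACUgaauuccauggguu
mmu-miR-155-5p: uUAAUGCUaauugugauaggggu

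The interaction subtracts the response to LPS of control microglia from that of Dicer-deficient microglia, on log2(normalised read count + 1). A positive value means that LPS moved the gene further up, or less far down, without Dicer. A gene was called when its Benjamini-Hochberg adjusted p in limma was under 0.05. Of 13423 genes tested, 23 were called, 17 with a positive and 6 with a negative interaction, which is 0.171% of the genes tested in either direction, 0.127% positive and 0.0447% negative. At an unadjusted p under 0.05 there were 1258 genes. LPS itself changed 3349 genes in Dicer-deficient microglia (24.9% of those tested; 12.2% higher and 12.8% lower) and 1897 in control microglia (14.1%; 7.05% higher and 7.08% lower). Of the called LPS effects in control microglia 49.9% were higher, and 63.4% with TMM scaling in edgeR. The genotypes differed in 8.87% of genes after LPS and in 2.18% at steady state. The called interactions were between 1.16 and 8.02 in size on the log2 scale, and the median over all genes tested was 0.00.

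Library 33 of the LPS control group stood apart from the other 3 libraries of its group. P2ry12, the purinergic receptor that marks resting microglia and is lost on activation, had 737.0, 1087.9, 1287.2 and 1000.8 normalised reads in LPS Dicer-deficient libraries, against 1475.6, 973.7, 1060.7 and 6073.8 in LPS control libraries. Tnf, which encodes an early inflammatory cytokine and was chosen after its values were seen, had 76.3 in library 33, against 436.7 to 589.5 in the other LPS control libraries. Without library 33, 92 of 13288 genes were called (0.692%), 68 positive (0.512%) and 24 negative (0.181%). All 23 genes called with 14 libraries were also called without it, with the same sign, and the largest of their adjusted p was 0.0296 (limma). LPS then changed 3927 genes in Dicer-deficient microglia (29.6%) and 3388 in control microglia (25.5%).

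The Dicer1 values do not check the labels. Dicer1 had 154.6, 79.6, 75.7 and 137.8 normalised reads in LPS Dicer-deficient libraries, against 119.7, 115.0, 83.8 and 109.9 in LPS control libraries. At steady state it had 75.9, 107.6 and 74.2 in Dicer-deficient libraries, against 126.7, 100.9 and 132.1 in control libraries. After LPS, Dicer-deficient libraries 35 and 38 lay above every control library, and the difference between genotypes was 0.01 on the log2 scale (limma adjusted p = 0.998). The steady-state difference was -0.49 (limma adjusted p = 0.427), and the groups overlapped. The interaction was 0.49 ± 0.37 (SE; limma adjusted p = 0.755). The deposited values are per gene, so a transcript that lacks only the deleted exons still counts, and the loss of the protein was not measured.

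Genes of the NF-kB pathway stood among the positive interactions. Of 28 tested NF-kB subunits and feedback inhibitors, 4 were called with a positive interaction and 0 with a negative one, against 0.127% and 0.0447% of all genes. The median interaction over the list was 0.90, against 0.00 over all genes, and 21 of the 28 were positive, against 50.2% of all genes. Without library 33 the list had 6 positive calls, 0 negative calls and a median of 0.75. In that fit 0.512% of all genes were called positive and 0.181% negative. Without steady-state control library 9, Nfkb2 alone of the 4 kept its call, and without LPS Dicer-deficient library 36, Nfkb2 and Tnip1 did.

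The promoters of Nfkb2, Nfkbie and Tnip1 are shown because these called genes encode parts or inhibitors of the NF-kB pathway and their windows hold the kappaB consensus motif. Each window runs from 250 bases before to 50 bases after a start of the gene on GRCm38.p6 (RefSeq), 5′ to 3′ on the gene's strand. Where a gene has more than 1 listed start, the window with the most matches is shown. Every match on either strand is in capitals, and matches that overlap merge into 1 run. Nfkb2 lies at chr19:46304487-46304786 on the plus strand, Nfkbie at chr17:45555450-45555749 on the plus strand and Tnip1 at chr11:54962891-54963190 on the minus strand.
Nfkb2: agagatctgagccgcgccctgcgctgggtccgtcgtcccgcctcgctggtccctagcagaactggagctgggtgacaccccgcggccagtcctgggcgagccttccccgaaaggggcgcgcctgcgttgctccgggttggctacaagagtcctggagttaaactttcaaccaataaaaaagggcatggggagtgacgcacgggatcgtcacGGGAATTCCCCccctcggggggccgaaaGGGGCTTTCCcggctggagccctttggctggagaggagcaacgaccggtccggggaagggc
Nfkbie: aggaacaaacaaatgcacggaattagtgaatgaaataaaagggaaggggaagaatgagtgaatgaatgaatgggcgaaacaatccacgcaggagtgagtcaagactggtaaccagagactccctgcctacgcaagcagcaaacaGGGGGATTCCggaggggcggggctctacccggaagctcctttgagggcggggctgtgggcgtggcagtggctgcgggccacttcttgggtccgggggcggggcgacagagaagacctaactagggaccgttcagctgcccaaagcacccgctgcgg
Tnip1: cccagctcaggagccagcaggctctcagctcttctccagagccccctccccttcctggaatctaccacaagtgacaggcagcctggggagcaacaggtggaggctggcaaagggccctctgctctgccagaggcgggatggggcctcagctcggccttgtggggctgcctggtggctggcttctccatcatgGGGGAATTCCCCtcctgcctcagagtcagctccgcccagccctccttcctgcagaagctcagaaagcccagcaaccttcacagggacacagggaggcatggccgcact

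The motif was matched in 5 of the 14 positive genes that have a promoter window in the table (Nfkb2, Nfkbie, Tnip1, Maff and Tnfaip8l1) and in 0 of 5 negative genes. It was matched in 4.51% of all 32851 windows and in 6.40% of the 10152 tested genes with a window. A match is a stretch of letters and does not show binding.

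Nfkb2 encodes the p100 precursor of the p52 subunit of non-canonical NF-kB. It had 976.7, 921.0, 884.0 and 1013.9 normalised reads in LPS Dicer-deficient libraries, against 328.1, 281.9, 324.9 and 157.5 in LPS control libraries. Its steady-state values were 143.3, 120.9 and 135.9 in Dicer-deficient libraries, against 133.3, 188.4 and 202.2 in control libraries. Every Dicer-deficient library lay above every control library after LPS, while the steady-state groups overlapped. LPS raised Nfkb2 by 2.82 on the log2 scale in Dicer-deficient microglia, against 0.61 in control microglia, which did not pass the test (limma adjusted p = 0.0842). Without library 33, which had the lowest LPS control value, 157.5, the LPS effect was called in both genotypes with the same sign. The interaction was 2.22 ± 0.32 (SE; limma adjusted p = 0.00487).

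Relb encodes the partner of p52 and is also a published miR-146a target. It had 427.7, 588.9, 487.2 and 497.1 normalised reads in LPS Dicer-deficient libraries, against 136.2, 134.0, 175.7 and 169.4 in LPS control libraries. Without LPS the values were 135.6, 67.6 and 45.3 in Dicer-deficient libraries, against 109.7, 96.7 and 129.8 in control libraries. The LPS groups did not overlap between genotypes and the steady-state groups did. The interaction was 2.26 ± 0.38 (SE; limma adjusted p = 0.0155), and the call was lost without LPS Dicer-deficient library 36 or steady-state control library 9, where the adjusted p reached 0.0756.

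Nfkbie encodes the inhibitor IkB-epsilon, and Tnip1 a ubiquitin-binding protein that works with A20 to restrain NF-kB. Nfkbie had 273.1, 197.4, 185.7 and 174.5 normalised reads in LPS Dicer-deficient libraries, against 106.3, 111.6, 124.2 and 155.5 in LPS control libraries. At steady state it had 79.4, 76.1 and 63.6 in Dicer-deficient libraries, against 117.2, 155.6 and 139.0 in control libraries. The order of the genotypes was thus opposite in the LPS and steady-state libraries, with no overlap in either, and both differences passed the test (limma adjusted p = 0.0245 after LPS and 0.0435 at steady state). Tnip1 had 325.0, 263.5, 287.9 and 368.6 in LPS Dicer-deficient libraries, against 172.3, 179.0, 191.1 and 168.4 in LPS control libraries. Its steady-state values were 133.5, 126.6 and 108.0 in Dicer-deficient libraries, against 170.2, 215.3 and 189.5 in control libraries. Here too every library of each genotype lay on opposite sides in the 2 conditions, but the steady-state difference did not pass the test (limma adjusted p = 0.0806). The interactions were 1.63 ± 0.29 for Nfkbie and 1.43 ± 0.24 for Tnip1 (SE; limma adjusted p = 0.0277 and 0.0155). Nfkbie lost its call in 7 of 14 fits that left out 1 library, and Tnip1 in 3.

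Tnfaip3, which encodes A20, and Nfkbiz, which encodes a nuclear IkB protein, were chosen after their values were seen. Their interactions of 1.82 and 2.11 did not pass the test with 14 libraries (limma adjusted p = 0.0746 and 0.110) and passed it without library 33 (0.0180 and 0.0326).

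**Figure D1:**
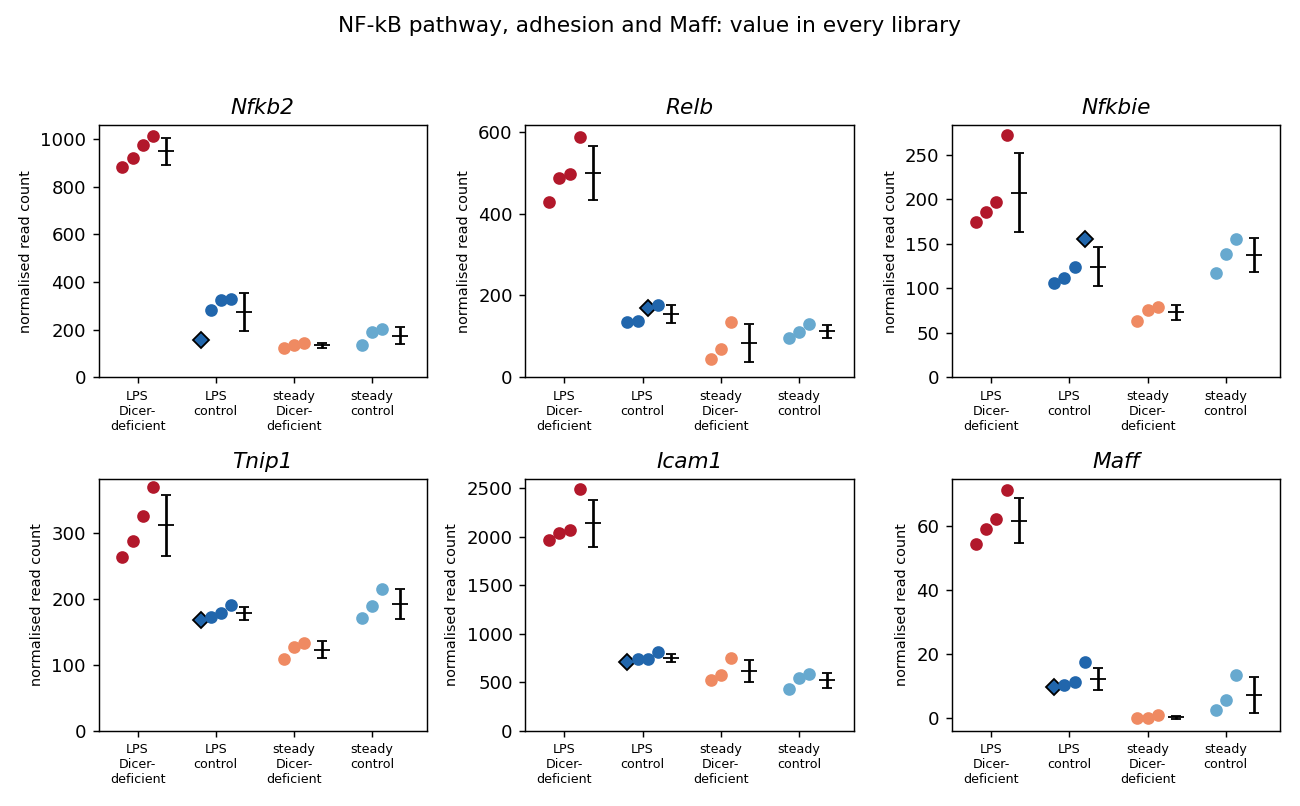
Normalised read count (vertical axis, linear, including 0) of 6 genes in each of the 14 libraries, by group; points are libraries, the black-edged diamond is LPS control library 33, and the bars are the group mean ± SD. In all 6 panels the 4 LPS Dicer-deficient libraries lie above the 4 LPS control libraries.

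Adhesion genes and immediate early genes held further positive calls. Of 24 tested adhesion and matrix genes, 2 were called positive and 0 negative, against 0.127% and 0.0447% of all genes, with a median interaction of 0.98. Without library 33 the list again had 2 positive and 0 negative calls, against 0.512% and 0.181% of all genes, and the median was 0.61. Icam1, the endothelial and leukocyte adhesion ligand of beta2 integrins, had 2494.2, 2033.5, 1964.2 and 2064.5 normalised reads in LPS Dicer-deficient libraries, against 740.9, 741.1, 811.5 and 711.1 in LPS control libraries. Without LPS the values were 749.0, 527.3 and 573.6 in Dicer-deficient libraries, against 434.0, 580.3 and 547.9 in control libraries. Icam1 rose with LPS in both genotypes, by 1.80 in Dicer-deficient and 0.54 in control microglia on the log2 scale, so its interaction of 1.27 ± 0.24 (SE; limma adjusted p = 0.0369) is a stronger effect of the same sign. Its call was lost in 10 of 14 fits that left out 1 library.

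Itgb3, the beta3 integrin subunit, differed between genotypes in both conditions. It had 1552.6, 1363.3, 1303.8 and 793.0 normalised reads in LPS Dicer-deficient libraries, against 81.5, 70.0, 103.6 and 93.1 in LPS control libraries. At steady state it had 869.2, 869.0 and 951.6 in Dicer-deficient libraries, against 274.2, 184.2 and 173.4 in control libraries. Dicer-deficient libraries were higher throughout with no overlap. LPS lowered Itgb3 by 1.25 on the log2 scale in control microglia, while its change of 0.44 in Dicer-deficient microglia did not pass the test (limma adjusted p = 0.170). The interaction was 1.69 ± 0.32 (SE; limma adjusted p = 0.0359), a call lost in 11 of 14 fits that left out 1 library.

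Of 31 immediate early and feedback genes, 1 was called positive and 0 negative, against 0.127% and 0.0447% of all genes. The interaction was positive in 28 of them, against 50.2% of all genes tested, with a median of 0.49. Without library 33, 2 were called positive, against 0.512% of all genes, and 22 were positive, against 50.9%. The gene called with 14 libraries was Maff, a small Maf transcription factor that dimerises with stress-response partners. It had 71.3, 59.3, 54.4 and 62.3 normalised reads in LPS Dicer-deficient libraries, against 11.4, 10.4, 17.6 and 9.9 in LPS control libraries. Its steady-state values were 0, 0 and 1.0 in Dicer-deficient libraries, against 2.8, 13.5 and 5.7 in control libraries. The genotypes were again in opposite order in the 2 conditions, without overlap in either. The interaction was 4.77 ± 0.67 (SE; limma adjusted p = 0.00389); it rests on a steady-state group near 0, so its size depends on the pseudocount.

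Cxcr2 encodes a chemokine receptor best known on neutrophils. It had 295.3, 230.5, 172.1 and 132.3 normalised reads in LPS Dicer-deficient libraries, against 7.2, 11.2, 13.2 and 5.9 in LPS control libraries. Without LPS the values were 0.7, 4.8 and 0 in Dicer-deficient libraries, against 4.7, 5.0 and 4.6 in control libraries. It was high in the 4 LPS Dicer-deficient libraries and low in the other 10. The interaction was 5.75 ± 0.73 (SE; limma adjusted p = 0.00389). Cxcr2 was the single called gene of 21 tested monocyte and neutrophil markers, whose summed level was 1102.5 to 4357.4 in LPS Dicer-deficient libraries and 199.3 to 3963.3 in LPS control libraries. At steady state that sum was 38.7 to 422.3 in Dicer-deficient and 17.9 to 50.3 in control libraries. The median interaction of the list was 0.71, with 15 of 21 positive, and without library 33 it was 1.31, with 17 of 19 positive. Over all genes tested 0.127% were called positive, and 50.2% had a positive interaction, or 50.9% without library 33. Of its neutrophil granule and surface genes, S100a9 reached 1534.1 normalised reads and was at 0 in 1 of 14 libraries, Ngp reached 925.3, S100a8 679.4 and Camp 541.7, while Ly6g was at 0 in 13 of 14 libraries. The part of such cells in the Cxcr2 result was not tested; in bulk libraries fewer cells of a type and less RNA per cell cannot be told apart.

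Il4i1 encodes a secreted amino acid oxidase induced by NF-kB in myeloid cells. It had 822.1, 929.5, 1083.2 and 2063.4 normalised reads in LPS Dicer-deficient libraries, against 52.6, 82.2, 155.8 and 63.4 in LPS control libraries. At steady state it had 89.9, 84.7 and 134.0 in Dicer-deficient libraries, against 58.6, 92.5 and 98.8 in control libraries. Only the LPS Dicer-deficient libraries stood above the rest. LPS raised it by 3.49 on the log2 scale in Dicer-deficient microglia, and its change of -0.01 in control microglia did not pass the test (limma adjusted p = 0.998). The interaction was 3.50 ± 0.49 (SE; limma adjusted p = 0.00389). The gene model Gm21948 had nearly the same values in every library and is uncertain as a separate result, since reads may be shared between the 2 entries.

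Gpr183, the oxysterol receptor that guides immune cell positioning, differed between genotypes at steady state. It had 1247.1, 1298.0, 1328.6 and 1048.4 normalised reads in LPS Dicer-deficient libraries, against 1210.4, 1021.3, 936.4 and 826.0 in LPS control libraries. Its steady-state values were 249.4, 433.1 and 401.1 in Dicer-deficient libraries, against 972.0, 926.8 and 1079.7 in control libraries. The genotypes overlapped after LPS and did not at steady state, where Dicer-deficient libraries were low. The interaction was 1.80 ± 0.28 (SE; limma adjusted p = 0.00688).

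Rbms1, an RNA-binding protein, had 311.1, 374.5, 390.8 and 428.2 normalised reads in LPS Dicer-deficient libraries, against 105.3, 133.2, 137.5 and 141.6 in LPS control libraries, and an interaction of 2.02 ± 0.28 (SE; limma adjusted p = 0.00389). Ninj1, whose protein ruptures the plasma membrane in lytic cell death, had 1126.7, 1215.9, 1021.1 and 1103.6 in LPS Dicer-deficient libraries, against 301.3, 409.0, 304.3 and 500.1 in LPS control libraries, and an interaction of 1.75 ± 0.26 (SE; limma adjusted p = 0.00520). In both genes the genotypes did not overlap after LPS. At steady state Rbms1 had 60.4, 97.1 and 79.1 in Dicer-deficient libraries, against 105.9, 118.6 and 103.4 in control libraries. For Ninj1 these values were 370.3, 362.6 and 349.0, against 463.3, 405.4 and 352.6. The genotypes thus stood in opposite order without overlap for Rbms1, and overlapped for Ninj1. Nek6, a mitotic kinase, had 580.4 to 641.5 in LPS Dicer-deficient libraries, against 315.9 to 392.5 in LPS control libraries, and an interaction of 1.16 ± 0.21 (SE; limma adjusted p = 0.0308), a call lost in 9 of 14 fits that left out 1 library. Its steady-state values were 226.6 to 262.7 in Dicer-deficient libraries, against 284.6 to 333.1 in control libraries, again in opposite order.

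Kcnip3, Plekhg2, Tnfaip8l1 and Maff lay below the median level of the tested genes, 52.2 normalised reads, and of these Kcnip3, Plekhg2 and Tnfaip8l1, with Gm21948, were chosen after their values were seen. Plekhg2, a guanine nucleotide exchange factor, had 62.1 to 72.9 in LPS Dicer-deficient libraries, against 31.6 to 40.2 in LPS control libraries. At steady state it stood in the opposite order, with 19.0 to 32.3 in Dicer-deficient libraries, against 51.7 to 60.6 in control libraries. Tnfaip8l1 had 22.4 to 38.4 in LPS Dicer-deficient libraries, against 1.0 to 6.6 in LPS control libraries; it was at 0 in all 3 steady-state Dicer-deficient libraries. Plekhg2 and Tnfaip8l1 each lost the call in 11 of 14 fits that left out 1 library. Kcnip3, which encodes a calcium-binding potassium channel partner, had 29.6, 36.4, 1.2 and 3.3 in LPS Dicer-deficient libraries, against 6.2, 0, 0 and 0 in LPS control libraries, and at steady state 0, 2.9 and 1.0 in Dicer-deficient libraries, against 79.4, 79.1 and 86.1 in control libraries. Its high values were therefore those of steady-state control libraries, and its interaction of 8.02 ± 1.29 (SE; limma adjusted p = 0.00965) goes with an LPS effect of -5.65 on the log2 scale in control microglia. With 3 LPS control libraries at 0 its size depends on the pseudocount, at 11.77 with a pseudocount of 0.1 and 5.23 with 5.

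**Figure D2:**
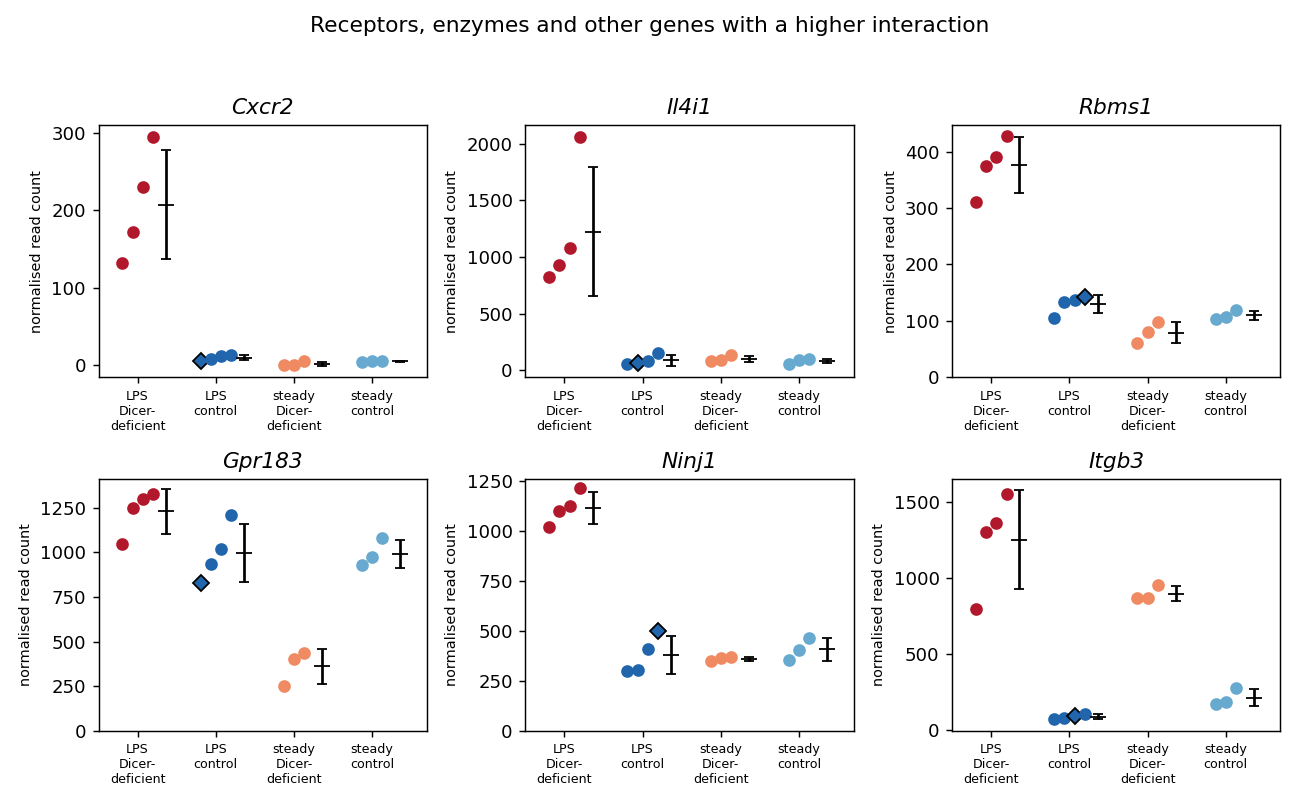
Normalised read count (vertical axis, linear, including 0) of 6 further genes with a positive interaction in each of the 14 libraries; symbols as for the NF-kB plot. Gpr183 separates the genotypes at steady state, where its Dicer-deficient libraries reach 433.1 and its control libraries start at 926.8.

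The 6 negative interactions were genes that LPS lowered in Dicer-deficient microglia. Slco4a1, an organic anion transporter, had 40.7, 28.0, 24.2 and 39.9 normalised reads in LPS Dicer-deficient libraries, against 241.5, 301.8, 132.3 and 207.0 in LPS control libraries. Without LPS the values were 139.8, 189.4 and 201.5 in Dicer-deficient libraries, against 225.0, 164.8 and 199.9 in control libraries. Only the LPS Dicer-deficient libraries were low. The interaction was -2.51 ± 0.38 (SE; limma adjusted p = 0.00548).

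Camk1d, a calcium/calmodulin-dependent kinase, had 89.1 to 115.7 normalised reads in LPS Dicer-deficient libraries, against 214.6 to 301.1 in LPS control libraries. At steady state it had 442.0, 459.7 and 427.1 in Dicer-deficient libraries, against 374.4, 290.2 and 336.6 in control libraries. The genotypes did not overlap in either condition and stood in opposite order. The interaction was -1.63 ± 0.24 (SE; limma adjusted p = 0.00520).

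Tbc1d5, a Rab7 GTPase-activating protein of the retromer pathway, had 96.3 to 118.6 normalised reads in LPS Dicer-deficient libraries, against 78.6 to 121.8 in LPS control libraries. Its steady-state values were 381.7 to 568.5 in Dicer-deficient libraries, against 130.5 to 156.4 in control libraries. LPS lowered it in both genotypes, by 2.10 in Dicer-deficient and 0.61 in control microglia on the log2 scale. At steady state it was higher in Dicer-deficient than in control microglia by 1.67 on the log2 scale (limma adjusted p = 0.000356). Tmem37 and Samd1 likewise were higher in every steady-state Dicer-deficient library than in every steady-state control library, with interactions of -1.60 and -1.70. Fkbp4, a co-chaperone of Hsp90, separated in the same way, with 475.0 to 482.0 against 256.2 to 313.7 normalised reads, although that difference was not called. After LPS it had 155.3 to 314.8 in Dicer-deficient libraries, against 309.6 to 576.8 in control libraries. Its interaction was -1.75. Fkbp4 and Tbc1d5 each lost the call in 10 of 14 fits that left out 1 library, Samd1 in 9 and Tmem37 in 8.

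Plcd1, Gpd1l, Cacna1a and Adcy7 were next among the negative genes at or above the median level, with interactions of -1.55, -1.75, -2.36 and -1.53 that did not pass the test with 14 libraries (limma adjusted p = 0.0595, 0.0595, 0.0658 and 0.0658) and passed it without library 33. All 4 were higher in every steady-state Dicer-deficient library than in every steady-state control library, and LPS lowered all 4 in Dicer-deficient microglia. A high steady-state Dicer-deficient level itself makes the interaction more negative. Picking genes by a negative interaction thus favours this pattern, here and among the called negative genes, and no share over all genes is given.

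**Figure D3:**
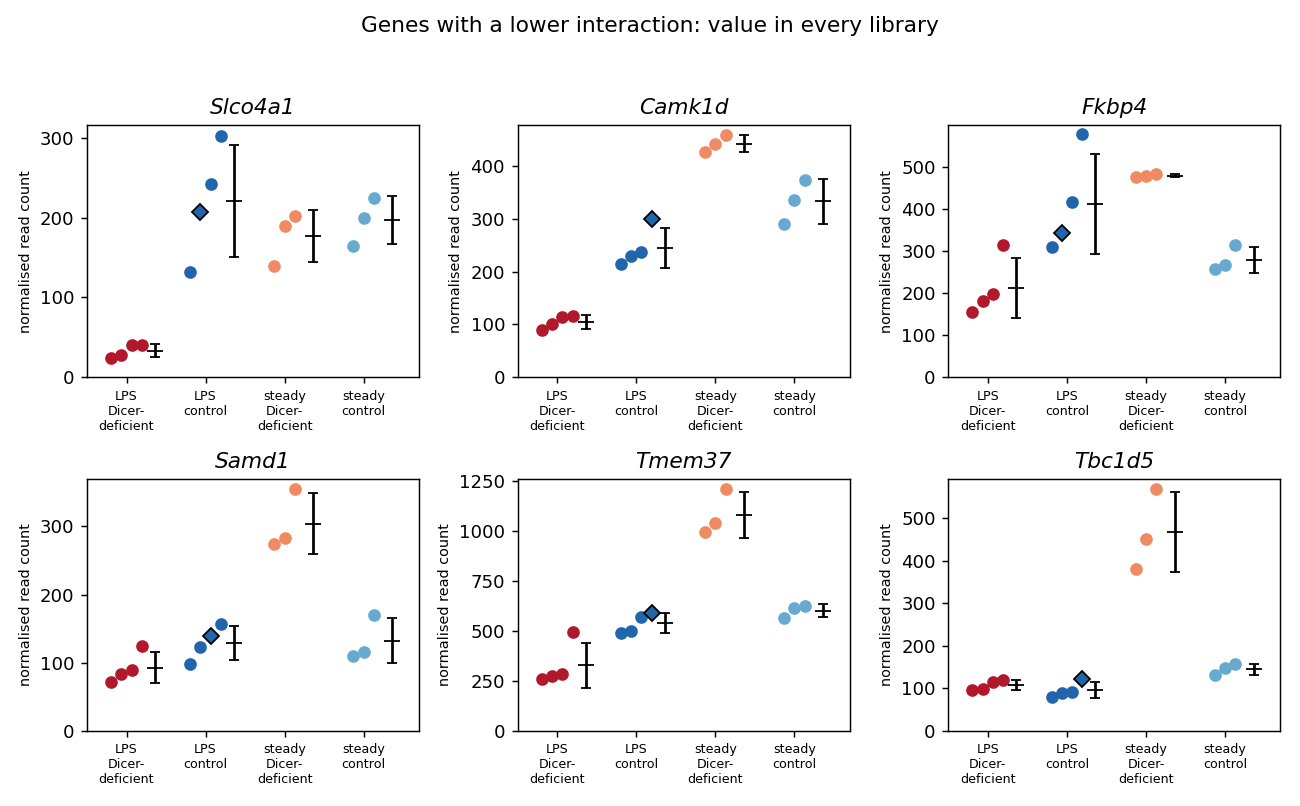
Normalised read count (vertical axis, linear, including 0) of the 6 genes with a negative interaction in each of the 14 libraries; symbols as for the NF-kB plot. Slco4a1 lies between 24.2 and 40.7 in LPS Dicer-deficient libraries, below all other libraries.

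Sorted by LPS effect, 19 of the 23 genes had an LPS effect called in Dicer-deficient microglia and not in control microglia, 2 had one called in both with the same sign (Icam1 and Tbc1d5), and 2 had one called in control microglia alone (Itgb3 and Kcnip3). None of the 23 had LPS effects called in opposite directions. Over all 13423 genes tested, 1989 had an LPS effect called in Dicer-deficient microglia alone, 1360 in both genotypes and 537 in control microglia alone. Of the 92 genes called without library 33, 40 had one called in Dicer-deficient microglia alone and 20 in control microglia alone. Another 24 had one called in both with the same sign and 8 in both with opposite signs. Over all 13288 genes then tested these counts were 1601 for Dicer-deficient alone, 1062 for control alone and 2326 for both. Sorted by the Dicer effect, 15 of the 23 genes had one called after LPS and not called at steady state. Another 4 had one called at steady state and not after LPS (Gpr183, Tbc1d5, Samd1 and Kcnip3). In both conditions it was called in 3 with opposite signs (Maff, Nfkbie and Tmem37) and in 1 with the same sign (Itgb3). Over all 13423 genes, 1190 had a Dicer effect called after LPS and 292 at steady state. An effect not called is not an absent one. Of the 15, Camk1d, Fkbp4, Nek6, Plekhg2, Rbms1 and Tnip1 separated the genotypes without overlap at steady state.

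**Figure D4:**
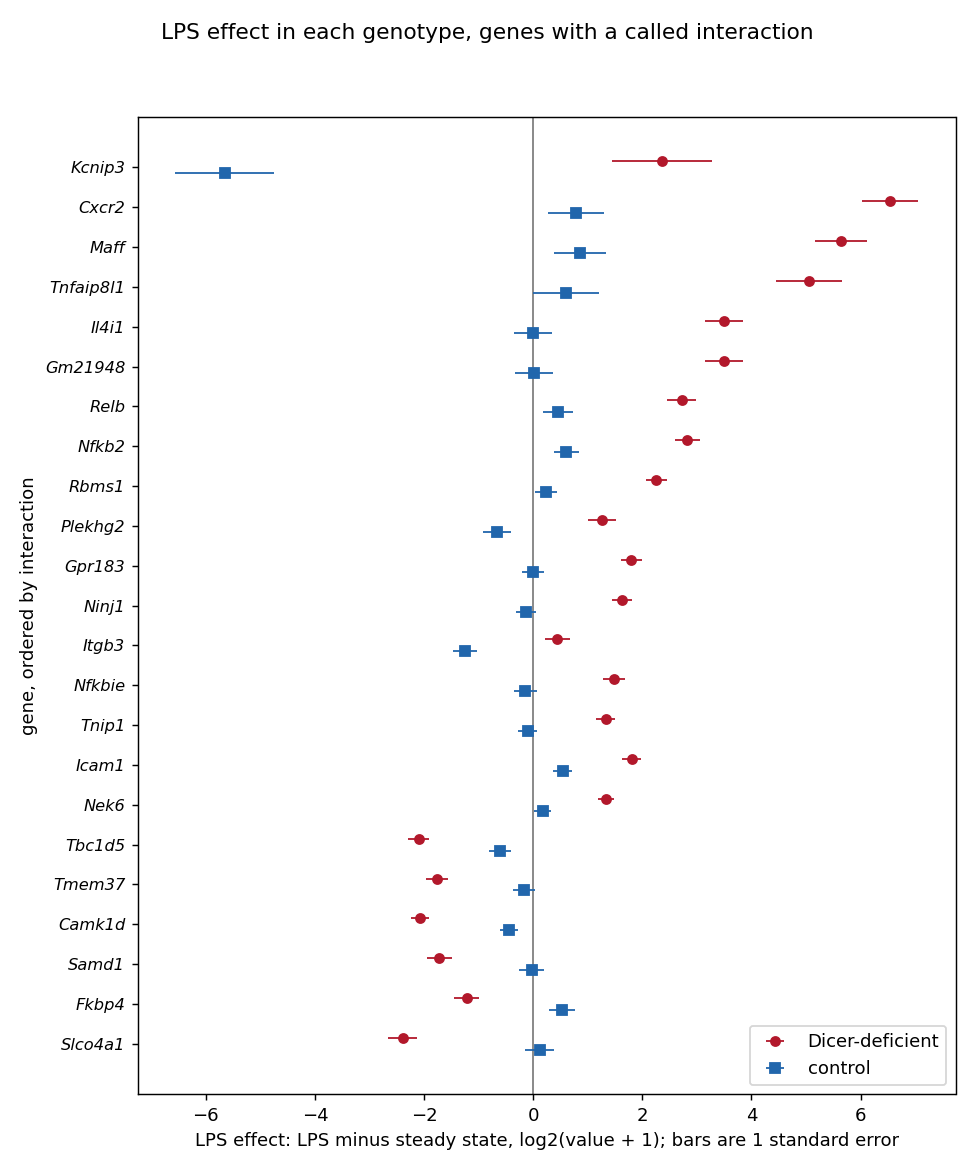
LPS effect (horizontal axis, log2 difference between LPS and steady state) in Dicer-deficient (red circles) and control (blue squares) microglia for the 23 genes with a called interaction, ordered by interaction; bars are 1 standard error. For 19 genes the effect was called in Dicer-deficient microglia alone; Kcnip3 lies far left in control microglia, at -5.65.

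When 1 library at a time was left out, 12 of the 23 genes lost their call in at least 1 fit, and 11 kept their call in all: Camk1d, Cxcr2, Gm21948, Gpr183, Il4i1, Kcnip3, Maff, Nfkb2, Ninj1, Rbms1 and Slco4a1. Calls lost numbered 11 each without LPS Dicer-deficient library 36, steady-state Dicer-deficient library 5 and steady-state control libraries 8 and 9, and 10 without LPS Dicer-deficient library 37. They numbered 9 each without LPS control libraries 17 and 31, 8 without LPS Dicer-deficient library 38, 7 without steady-state control library 7, 6 without steady-state Dicer-deficient library 12, and 4 each without LPS Dicer-deficient library 35 and steady-state Dicer-deficient library 11b. No call was lost without LPS control library 32 or 33. Without a variance trend Fkbp4, Icam1, Itgb3, Nek6, Nfkbie, Relb, Samd1, Tbc1d5 and Tmem37 lost theirs, and edgeR with TMM did not call Icam1, Nek6 and Tnfaip8l1.

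The genes named here for a weaker LPS effect without Dicer passed the interaction test only when library 33 was left out. Asb2, an E3 ligase subunit, had 235.2, 248.3, 201.6 and 257.6 normalised reads in LPS Dicer-deficient libraries, against 107.3, 96.9, 79.4 and 390.2 in LPS control libraries, with 390.2 in library 33. Steady-state values were 389.3, 395.0 and 469.5 in Dicer-deficient libraries, against 509.6, 513.0 and 647.8 in control libraries. In the fit without library 33, LPS lowered Asb2 in both genotypes, and less without Dicer. Its interaction was 1.21 with 14 libraries and 1.72 without library 33 (limma adjusted p = 0.449 and 0.00297). Klhl6 and Fchsd2 had the same form, though without library 33 their LPS effect was called in control microglia alone. Klhl6 had interactions of 1.38 and 1.81 (limma adjusted p = 0.289 and 0.00320), and Fchsd2 had interactions of 1.32 and 1.69 (limma adjusted p = 0.246 and 0.00354). Msr1, the class A scavenger receptor, had 47.2, 100.8, 125.9 and 173.9 in LPS Dicer-deficient libraries, against 865.7, 729.0, 913.6 and 24.8 in LPS control libraries. Steady-state values were 16.2, 21.9 and 13.5 in Dicer-deficient libraries, against 10.4, 18.5 and 28.7 in control libraries. In the fit without library 33, LPS raised Msr1 in both genotypes, and less without Dicer. Its interaction was -1.71 with 14 libraries and -2.96 without library 33 (limma adjusted p = 0.743 and 0.0144). Library 33 had the highest LPS control value of Asb2, Klhl6 and Fchsd2 and the lowest of Msr1. Its Msr1 value lay within the range of the steady-state control libraries.

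Crlf2, the receptor of thymic stromal lymphopoietin, had LPS effects of opposite sign. It had 775.8, 627.8, 970.3 and 701.7 normalised reads in LPS Dicer-deficient libraries, against 298.2, 160.0, 236.7 and 237.7 in LPS control libraries. Its values without LPS were 336.6, 162.8 and 740.4 in Dicer-deficient libraries, against 1016.4, 456.7 and 524.9 in control libraries. LPS raised it by 1.14 in Dicer-deficient microglia (limma adjusted p = 0.0341) and lowered it by 1.45 in control microglia (0.0174); the interaction was 2.59 with 14 libraries and 2.61 without library 33 (limma adjusted p = 0.0595 and 0.0326). Spint1, a serine protease inhibitor, was highest in 2 LPS Dicer-deficient libraries, with 1934.0, 2860.4, 24.8 and 24.6 in LPS Dicer-deficient libraries, against 10.3 to 29.7 in LPS control libraries. Steady-state Spint1 values were 18.3, 15.2 and 12.5 in Dicer-deficient libraries, against 224.1, 282.6 and 261.9 in control libraries. The Spint1 interaction was 7.92 without library 33 (limma adjusted p = 0.0453) and was not called with 14 libraries.

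No cytokine or chemokine had a called interaction. Among all genes tested 0.171% were called and 50.2% had a positive interaction. Of 15 tested inflammatory cytokines 12 had a positive interaction and 0 were called by limma (3 at an unadjusted p under 0.05, 0 by edgeR with TMM, 0 with RLE and 0 by DESeq2), with a median of 0.89, which was 0.54 without library 33. Of 22 chemokines 17 were positive and 0 were called by limma (7 at an unadjusted p under 0.05, 0 by edgeR with TMM, 0 with RLE and 0 by DESeq2), with medians of 0.84 and 0.48. Il1b had 1189.7, 1138.7, 1079.7 and 1806.4 normalised reads in LPS Dicer-deficient libraries, against 239.4, 264.6, 449.1 and 48.5 in LPS control libraries. The LPS groups did not overlap, and Il1b differed between genotypes after LPS (2.72 on the log2 scale, limma adjusted p = 0.00309), while the interaction of 2.51 ± 0.78 (SE) did not pass the test (limma adjusted p = 0.235). Ccl22, Cd40 and Cst7 also differed between genotypes after LPS without overlap, with interactions of 3.32, 3.30 and 3.18 that did not pass the test (limma adjusted p = 0.127, 0.146 and 0.120).

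Interferon-stimulated genes had 0 of 44 called by limma (3 at an unadjusted p under 0.05, 0 by edgeR with TMM, 0 with RLE and 1 by DESeq2), with a median interaction of 0.17, or 0.00 in size without library 33, although LPS raised 37 of them in Dicer-deficient and 29 in control microglia. Homeostatic microglial genes had 0 of 38 called by limma (2 at an unadjusted p under 0.05, 0 by edgeR with TMM, 0 with RLE and 0 by DESeq2) and a median of 0.03; LPS lowered 18 of them in Dicer-deficient and 19 in control microglia. Without library 33 the median was 0.33, and 30 of the 38 were positive rather than 20, against 50.9% and 50.2% of all genes. With 14 libraries LPS raised 12.2% of all genes tested in Dicer-deficient and 7.05% in control microglia, and lowered 12.8% and 7.08%. Without library 33, LPS lowered 26 of the 38 in control microglia, against 1753 of all 13288 genes tested. In that fit 1, the leukotriene C4 synthase gene Ltc4s, was called positive (interaction 1.26, limma adjusted p = 0.0444), against 0.512% of all genes. Of 19 published miR-146a targets 1, Relb, was called positive, against 0.127% of all genes. The median of these targets was 0.12 with 15 positive, against 0.22 and 12 positive without library 33. The share of positive interactions over all genes was 50.2%, and 50.9% without library 33. Of 25 miR-155 targets 0 were called by limma (3 at an unadjusted p under 0.05, 0 by edgeR with TMM, 0 with RLE and 1 by DESeq2), with a median of -0.08, which was -0.03 without library 33, where 1 was called. That gene, Bach1, represses haem oxygenase and had 303.7, 360.9, 368.4 and 392.7 in LPS Dicer-deficient libraries, against 116.6, 154.8, 96.3 and 160.4 in LPS control libraries; its interaction of 1.67 did not pass the test with 14 libraries (limma adjusted p = 0.0920) and did without library 33 (0.0448).

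Erythroid transcripts also varied among the libraries. Their summed level was 4623.6 to 10768.9 in LPS Dicer-deficient libraries, against 489.1 to 18771.1 in LPS control libraries, and at steady state 162.2 to 713.0 in Dicer-deficient libraries, against 596.7 to 3669.8 in control libraries. The LPS and steady-state ranges were apart in Dicer-deficient libraries and overlapped in control libraries. By limma 0 of the 11 tested erythroid genes were called in the interaction (4 at an unadjusted p under 0.05, 0 by edgeR with TMM, 0 with RLE and 0 by DESeq2), with a median of 2.59. Hba-a1 and Hba-a2 had nearly the same values in every library. The highest values of Hbb-b1 and Hbb-bs were 4453.7 and 4464.9, and those of Hbb-b2 and Hbb-bt 1560.9 and 1557.5. Reads may be shared within these pairs, so the sums, the count and the median may take in the same reads more than once. Whether red cell RNA had a part in other results was not tested. Xist was above 100 normalised reads in 2 libraries, with 363.7 in LPS Dicer-deficient library 38 and 580.4 in steady-state Dicer-deficient library 11b, and at most 10.4 in the other 12. With log2(Xist + 1) as a covariate, chosen after seeing the data, all 23 genes were still called.

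**Figure D5:**
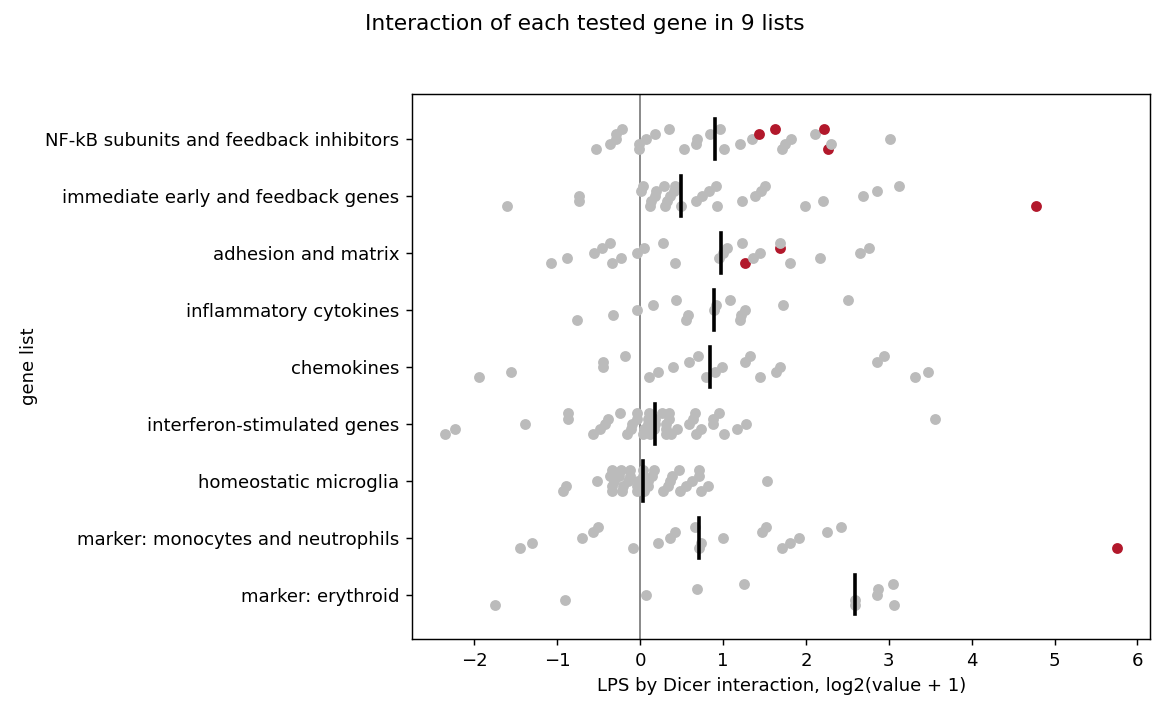
LPS by Dicer interaction (horizontal axis, log2 scale) of each tested gene in 9 lists; red points were called, grey points were not, and black bars are list medians. The NF-kB list holds 4 called genes and the interferon-stimulated list 0.

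A second set of libraries, from the hippocampus, was set beside these results after the data were seen. With 2 to 3 libraries a group and its own normalisation, 22 of the 23 genes had the same sign of interaction there, against 57.4% of 12206 genes tested in both tables; Relb had the opposite sign, -0.59. None of the 23 was called there by limma, and 9 of 23 had an unadjusted p under 0.05, against 5.71% of all genes. The 23 genes were picked for their total-brain interaction, which favours a smaller size in any second set. A count of smaller values therefore does not compare the regions. The hippocampal interaction was smaller in size than that of the total brain in 20 of the 23 genes, with no test between the tables. It was 2.37 for Cxcr2, 1.36 for Il4i1 and -0.28 for Tmem37. The genes with the lowest unadjusted p there were Slco4a1, Gpr183 and Itgb3, with -3.08, 1.62 and 2.53. Number 5 occurs among the steady-state Dicer-deficient libraries of both sets, so the sets may share a mouse. Hippocampal steady-state control library 1 had 687.6 for Cx3cr1, against 7138.7 in library 2. Leaving out that library 1 again gave the same sign for 22 genes, against 56.0% of all genes. The Kcnip3 interaction was then 3.03 rather than 6.48.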

How the data were processed

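Total RNA from sorted microglia was captured on oligo(dT) beads, per the labels' protocols. The submitters' processing notes list HISAT 0.1.5, HOMER, DESeq2, SAMtools and bcl2fastq, with the build mm9, in no stated role. The authors deposited signal: read counts per gene scaled by 1 factor per library. Dividing by that factor gave whole reads, within 0.1 read, for at least 99.89% of values, and totals of 2244133 to 4573046 reads a library; precision covers counting error only. In 5 libraries the lowest value was 2 factors. The design text counts 3 LPS Dicer-deficient libraries; the table and labels hold 4.

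Genes that reached a value of 1 in 3 or more libraries were tested with limma 3.58.1 (R 4.3.3) on log2(value + 1) with a variance trend and 1 mean per group, Benjamini-Hochberg adjusted. The pseudocount understates changes of low genes. edgeR 4.0.16 and DESeq2 1.42.0 on recovered reads were alternatives. On simulated data with 14 libraries, 2 of 196 genes were recovered at a log2 interaction of 1 and 83 of 196 at 2 (13139 and 13109 genes tested), so interactions of this size are often missed. Members and lists were chosen with earlier results of these data known. Named genes are called genes at or above the median level, up to 12 a direction, then up to 6 a class and 3 a list; only part are named, and 1 named by this rule is not reported here.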

Additional observations from a re-analysis of the deposited data

Results flagged for a closer look

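The 23 genes whose LPS effect differed between Dicer-deficient and control microglia were singled out by the interaction test. The positive interactions, on the log2 scale, were 5.75 for Cxcr2, 8.02 for Kcnip3, 4.77 for Maff, 4.45 for Tnfaip8l1, 3.50 for Il4i1, 3.48 for Gm21948, 2.26 for Relb, 2.22 for Nfkb2, 2.02 for Rbms1, 1.93 for Plekhg2, 1.80 for Gpr183, 1.75 for Ninj1, 1.69 for Itgb3, 1.63 for Nfkbie, 1.43 for Tnip1, 1.27 for Icam1 and 1.16 for Nek6. The value for Tnfaip8l1 depends on the pseudocount, since its steady-state Dicer-deficient libraries were all at 0. The negative ones were -2.51 for Slco4a1, -1.75 for Fkbp4, -1.70 for Samd1, -1.63 for Camk1d, -1.60 for Tmem37 and -1.49 for Tbc1d5.

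In 14 instances 1 library lay far from the other 3 of its LPS group, measured as its gap to the nearest library over the group's range. The 2 LPS groups of 67 genes were examined, 134 in all, and chance alone flags about 1 in 20 groups. Asb2, Klhl6 and Fchsd2 were named because they passed the interaction test without library 33, which favours their appearing here. Among LPS control libraries, library 33 was apart for Asb2 (0.910), Fchsd2 (0.830), Klhl6 (0.955) and P2ry12 (0.902), and library 17 for Junb (0.955) and Kcnip3 (1). Among LPS Dicer-deficient libraries, library 38 was apart for Ccl22 (0.841), Cd40 (0.872), Il1b (0.849), Myd88 (0.845) and Tgm2 (0.944), library 36 for Plekhg2 (0.880), library 37 for Ralgds (0.840) and library 35 for Tmem37 (0.884).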

How the results depend on the processing

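All 23 called genes kept their sign in all 14 fits that left out 1 library, and 11 of them kept their call in each. The count of called interactions ranged from 13 to 92 over these fits, LPS effects in Dicer-deficient microglia from 2351 to 3927, LPS effects in control microglia from 872 to 3388, Dicer effects after LPS from 723 to 1430 and Dicer effects at steady state from 89 to 594. The highest of each of these counts came without library 33, except that of the Dicer effect after LPS, which came without steady-state Dicer-deficient library 11b. Relb, Tnip1 and the other genes that lost calls did so at adjusted p up to 0.131. Called interactions numbered 52 with a pseudocount of 5, 219 with library quality weights, 165 with DESeq2, 98 with edgeR and no library 33, and 41 with Xist as a covariate, the last 2 chosen after seeing the data. Quality weights also gave 3814 LPS effects in control microglia, 1810 Dicer effects after LPS and 964 at steady state. Without a variance trend there were 1159 LPS effects in control microglia. DESeq2 gave 552 Dicer effects at steady state; edgeR without library 33 gave 3229 LPS effects in control microglia and 555 Dicer effects at steady state. edgeR with 14 libraries called 24 interactions with TMM and 21 with RLE scaling; with TMM, 63.4% of called LPS effects in control microglia were higher, against 49.9% in limma. The P2ry12 interaction, -0.36 with 14 libraries, ranged from -0.64 to 0.24 when 1 library was left out, with 0.24 without library 33, and was 0.16 with quality weights and 0.24 with edgeR and no library 33. Subtracting 1 factor in the 5 libraries that start at 2, chosen after seeing the data, left 24 calls. The cause of these shifts was not tested. No paired analysis was possible because the total-brain groups share no replicate number. Depth of 2244133 to 4573046 reads limits what can be read from genes near 0.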
